A study of Mus musculus with 18 samples.

Results

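The immediate early genes are 10 genes that a cell can switch on within minutes of a stimulus, without first making new protein: Fos, Fosb, Jun, Junb, Egr1, Ier2, Atf3, Zfp36, Nr4a1 and Dusp1. They were taken by name from the 21899 genes listed for 18 RNA-seq libraries, and all 10 were found. The libraries come from liver, epididymal white adipose tissue (eWAT) and quadriceps muscle of male wild-type C57BL/6 mice aged 18 weeks, 3 libraries for each tissue and diet. The control group (CON) had normal chow and water, and the high-salt diet group (HSD) had salty chow and saline to drink for 12 weeks. The labels give no allele or transgene in either group. In the sample titles each library carries a code for an animal. The liver libraries are CON14, CON16 and CON72 against HS2, HS4 and HS5 (replicates 1 to 3 in that order), and both the eWAT and the muscle libraries are CON16, CON71 and CON72 against HS2, HS3 and HS5. Taken at face value, the codes stand for 8 mice, of which 4 gave all 3 tissues, 2 gave 2 and 2 gave liver alone. The p-values measure the spread between these mice. The tissues were frozen on dry ice, and how long each stood before freezing is not given in the sources used here.

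Most of these genes are transcribed through factors already present in the resting cell, among them serum response factor with its MAP-kinase-activated partners and the cAMP-responsive factor CREB. Their mRNAs are short-lived, so their level follows events of the last hour or so, which include feeding, hormones, anaesthesia and the removal of a tissue as well as disease. Fos, Fosb, Jun, Junb and Atf3 encode basic leucine-zipper proteins of the AP-1 and ATF families, Egr1 and Nr4a1 encode a zinc-finger factor and an orphan nuclear receptor, Ier2 encodes a small nuclear regulator, and Zfp36 and Dusp1 encode inhibitors, one that destabilises AU-rich mRNAs and one that dephosphorylates MAP kinases. In liver and fat some of them also take part in the response to glucagon and catecholamines.

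The promoters of Fos and of the 3 members most like it across the libraries, among those with a promoter at hand, are shown because the results turn on genes that moved together. Each run is the 250 bases before the annotated start in GRCm38.p6, from RefSeq, written 5′ to 3′ on the gene's strand. The capitals mark TGACG, the core of the cAMP response element, or its reverse complement CGTCA.
Fos (chr12:85473640-85473889, plus strand): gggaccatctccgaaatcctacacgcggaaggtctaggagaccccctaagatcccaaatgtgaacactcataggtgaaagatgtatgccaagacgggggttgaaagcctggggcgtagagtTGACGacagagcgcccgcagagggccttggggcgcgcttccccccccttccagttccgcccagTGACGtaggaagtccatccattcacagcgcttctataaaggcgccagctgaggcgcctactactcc
Junb (chr8:84978749-84978998, minus strand): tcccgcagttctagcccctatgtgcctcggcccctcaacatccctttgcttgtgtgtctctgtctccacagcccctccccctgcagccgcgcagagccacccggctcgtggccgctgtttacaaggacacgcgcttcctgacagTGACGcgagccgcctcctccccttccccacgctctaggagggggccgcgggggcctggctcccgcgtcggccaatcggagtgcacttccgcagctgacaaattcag
Nr4a1 (chr15:101266596-101266845, plus strand): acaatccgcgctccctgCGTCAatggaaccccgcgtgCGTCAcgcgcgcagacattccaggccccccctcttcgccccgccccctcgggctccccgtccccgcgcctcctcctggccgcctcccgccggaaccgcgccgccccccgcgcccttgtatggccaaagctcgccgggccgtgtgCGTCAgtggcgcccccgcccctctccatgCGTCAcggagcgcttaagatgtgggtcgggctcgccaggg
Jun (chr4:95052223-95052472, minus strand): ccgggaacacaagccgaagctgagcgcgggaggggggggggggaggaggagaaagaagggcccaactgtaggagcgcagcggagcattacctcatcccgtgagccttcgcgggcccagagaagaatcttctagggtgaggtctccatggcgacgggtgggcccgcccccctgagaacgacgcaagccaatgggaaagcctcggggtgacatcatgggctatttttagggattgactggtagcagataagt

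The core was found in the promoters of 6 of the 8 immediate early genes that RefSeq's table held (Fos, Fosb, Junb, Atf3, Nr4a1 and Dusp1), against 17.8% of all 32851 promoters of the same length. Nr4a1 had 4 copies, at 233, 213, 69 and 40 bases before its start, and Fos had 2, at 129 and 66. The full element TGACGTCA, which holds the core on both strands, was found in Dusp1 alone, and in 1.55% of all promoters. The core of the serum response element was found in Zfp36 alone, and in 1.47% of all promoters. The AP-1 site, read as TGACTCA or TGAGTCA, was found in none of the 8 and in 4.46% of all promoters. These are matches of letters on both strands in a short window, and Jun held none of the 4. Egr1 and Ier2 were not in the table.

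In the annotation used to place the genes (GENCODE M21 on mm10, which is GRCm38), Fos lies on chromosome 12 from 85473890 to 85477273 and Nr4a1 on chromosome 15 from 101254269 to 101274795, both on the plus strand. Junb and Ier2 both lie on the minus strand of chromosome 8, from 84974484 to 84978718 and from 84661331 to 84662852. Fosb and Zfp36 are both on the minus strand of chromosome 7, at 19302696 to 19310051 and 28376784 to 28380253. Jun, on chromosome 4, runs from 95049034 to 95052222, Atf3, on chromosome 1, from 191170296 to 191218039, and Dusp1, on chromosome 17, from 26505590 to 26562128, each on the minus strand. Egr1 is on the plus strand of chromosome 18 from 34859823 to 34864984. The values sum reads over each gene's exons and do not separate isoforms.

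The levels are fragments scaled to exon length and to a total for the library (FPKM), as the authors deposited them. Whole fragments could be read back from them, and the fitted totals ran from 7628086 (CON14 liver) to 16637491 (CON72 eWAT) fragments. These totals were close to the fragments summed over the listed genes, 7620934 and 16607123 in the same 2 libraries. Each tissue had its own markers, with the 8 hepatocyte genes summing to between 16597 and 84685 FPKM in liver, the 8 adipocyte genes to between 6531 and 21298 in eWAT and the 8 skeletal muscle genes to between 57682 and 74505 in muscle. Several libraries stood apart. The HS3 eWAT library had 17446 FPKM of 10 epididymal epithelium genes, against at most 14.6 in any other library, together with the lowest adipocyte sum. The CON16 liver library had 4218 FPKM of skeletal muscle genes, against 2.2 to 6.6 in the other liver libraries, and 5626 FPKM of 5 erythroid genes, against 237 to 842. The CON16 eWAT library had 5667 FPKM of the erythroid genes, against 243 to 744 in the other eWAT libraries, and the CON16 muscle library 965, against 124 to 224. In the CON14 liver library 60.8% of fragments were mitochondrially encoded, against 15.4% to 44.4% in the other liver libraries. The diet estimates, the spread, the likeness to Fos and the tissue calls are also given without some of these libraries. The order of the libraries and the marker sums are not. These, and the separation of the diets by library, are given in the deposited scaling alone. In bulk tissue, more RNA per cell cannot be told apart from more cells of a type.

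In liver the immediate early genes split into a high and a low tier. Dusp1, Jun, Junb, Ier2 and Zfp36 had mean levels over the 6 libraries from 27.4 FPKM (Jun) to 51.2 FPKM (Zfp36), whereas Fos (3.20), Nr4a1 (6.88), Egr1 (15.6), Atf3 (1.22) and Fosb (0.0919) were lower. Fosb was listed at 0 in CON14, CON72 and HS4, and its highest value was 0.281 FPKM in HS5, from 15 fragments. It is therefore described but was left out of the liver test, which required a mean of 0.5 FPKM.

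Fos, whose protein pairs with Jun proteins to form AP-1, stood at 1.11, 3.44 and 1.53 FPKM in the CON liver libraries (CON14, CON16, CON72) and at 6.49, 0.53 and 6.07 FPKM in the HSD libraries (HS2, HS4, HS5). The lowest of all 6 was an HSD library, HS4, with 13 fragments (exact Poisson 95% interval 6.92 to 22.2, which covers counting error only), and HS2 had 159 (135 to 186). Egr1, a zinc-finger factor induced by growth signals, was at 2.72, 9.09 and 5.07 FPKM in CON and at 33.8, 2.56 and 40.4 in HSD. Nr4a1, a nuclear receptor induced by glucagon in liver, was at 1.23, 4.17 and 1.53 FPKM in CON and at 10.7, 1.43 and 22.2 in HSD. In all 3 genes HS2 and HS5 were above every CON library while HS4 was at or near the bottom, so the groups overlapped.

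Ier2 was the exception. It was at 22.7, 26.9 and 21.2 FPKM in CON liver and at 57.0, 34.2 and 57.0 in HSD, with every HSD library above every CON library. The log2 fold change was 1.02 ± 0.34 (SE, n = 3 against 3), with an unadjusted p of 0.0193 and an adjusted p of 0.764 (limma on log2(FPKM + 0.5), Benjamini-Hochberg over 10317 genes). Such a separation was found for 8.62% of all liver genes upward and 3.47% downward, so 1 of 9 immediate early genes is close to the share of all genes. The separation of Ier2 also depends on the scaling. Mitochondrially encoded fragments, 60.8% in CON14 and 15.4% in HS4, count in the library total. With those left out of the total, CON14 would lie above HS4 for Ier2. Junb, the AP-1 partner, was at 30.9, 37.8 and 22.6 FPKM in CON and 73.1, 36.0 and 91.3 in HSD, with HS4 below CON16 (log2 fold change 1.05 ± 0.44, unadjusted p 0.0482, adjusted p 0.764 by limma).

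Of the 2 inhibitors, Dusp1 was at 29.6, 25.6 and 21.7 FPKM in CON and 33.2, 18.9 and 59.7 in HSD liver, and Zfp36 at 50.02, 48.3 and 45.3 in CON and 65.2, 29.3 and 68.9 in HSD. For both the HSD libraries lay on either side of all 3 CON libraries. Atf3, a stress-responsive repressor and activator, was the scarcest member tested, with 1 fragment in CON14 and 58 in HS5. Its values were 0.061, 1.28 and 0.61 FPKM in CON and 1.16, 1.07 and 3.15 in HSD. Jun was at 16.2, 27.4 and 21.4 in CON and 55.2, 15.7 and 28.6 in HSD, again with HS4 lowest.

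In eWAT HS5 was the highest library for every one of the 10 genes. Fos was at 33.7, 15.5 and 81.0 FPKM in CON (CON16, CON71, CON72) and at 59.2, 29.9 and 109 in HSD (HS2, HS3, HS5). Fosb, a Fos relative that also forms AP-1, was at 3.82, 0.846 and 12.3 in CON and at 5.13, 2.32 and 27.1 in HSD, a 32.0-fold range over the 6 libraries. Egr1 was at 33.3, 14.3 and 54.8 in CON and 58.0, 24.0 and 105 in HSD. The HS5 library was the highest and CON71 the lowest for these 3 genes, and CON72 and HS2 took the next places, so that the diets were interleaved.

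Nr4a1 in eWAT was at 14.8, 7.05 and 32.0 FPKM in CON and 43.1, 28.1 and 50.5 in HSD, where only CON72 and HS3 were out of order. Its log2 fold change was 1.36 ± 0.54 (SE, n = 3 against 3; unadjusted p 0.0472, adjusted p 0.292 by limma over 13740 genes). Junb was at 35.7, 18.4 and 45.5 in CON and 62.6, 41.2 and 82.0 in HSD (log2 fold change 0.93 ± 0.40, adjusted p 0.318 by limma). Jun, Dusp1 and Zfp36 were the most abundant in this tissue, at 50.3 to 150, 38.2 to 130 and 30.8 to 96.2 FPKM over the 6 libraries. Ier2 ranged from 20.2 to 60.6 and Atf3 from 4.197 to 15.9. None of the 10 genes separated the diets in eWAT, where 16.2% of all genes tested were higher in every HSD library and 12.4% lower.

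In muscle the libraries of a group lay much closer together. Nr4a1, which exercise induces in muscle, was the most abundant member at 65.0, 64.0 and 61.9 FPKM in CON and 81.5, 68.2 and 75.8 in HSD. Every HSD library was above every CON library, by a small step (log2 fold change 0.24 ± 0.12, unadjusted p 0.0705, adjusted p 0.35 by limma over 10834 genes). Jun went the other way, at 32.8, 37.8 and 35.4 FPKM in CON and 30.3, 29.8 and 25.9 in HSD (log2 fold change −0.30 ± 0.12, unadjusted p 0.0320, adjusted p 0.258 by limma). Atf3, at 3.22, 3.37 and 3.98 in CON and 2.72, 3.04 and 2.92 in HSD, was also lower in every HSD library (log2 fold change −0.24 ± 0.12, adjusted p 0.368 by limma). Of all muscle genes tested, 6.72% were higher and 15.6% lower in every HSD library, against 1 and 2 of the 10 immediate early genes.

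Fos in muscle was at 16.7, 16.6 and 13.3 FPKM in CON and at 9.45, 27.4 and 17.4 in HSD (HS2, HS3, HS5). The 2 extremes of the 6 libraries were thus both HSD libraries. Dusp1 was at 47.8, 46.9 and 38.1 in CON and 46.0, 61.0 and 56.2 in HSD. Egr1 ranged from 5.46 to 11.9 FPKM, Junb from 7.44 to 12.7, Ier2 from 5.77 to 11.3, Zfp36 from 6.11 to 8.78 and Fosb from 0.433 to 1.67, with the diets overlapping in each.

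**Figure D1:**
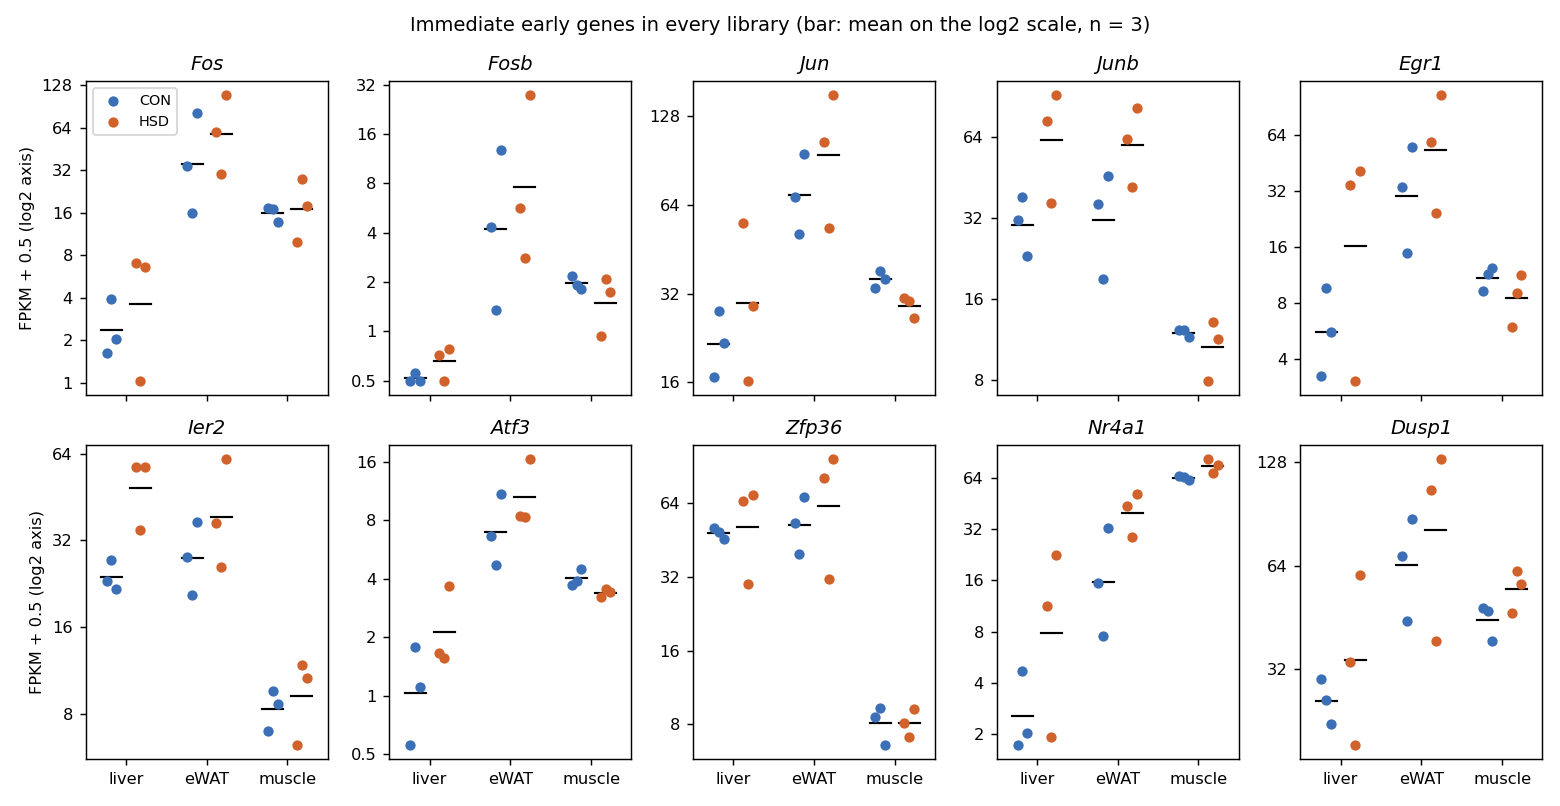
FPKM + 0.5 of each immediate early gene on a log2 axis, by tissue, in the 3 CON (blue) and 3 HSD (orange) libraries; the bar is the mean on the log2 scale. The liver and eWAT points of a group are mostly far apart, with Fos from 0.53 to 6.49 FPKM in HSD liver. The muscle points mostly lie closer together, with Fos from 9.45 to 27.4 FPKM in HSD muscle and Nr4a1 from 61.9 to 65.0 in CON muscle.

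The diet comparison asked which of these genes differ between HSD and CON mice in each tissue. No immediate early gene passed an adjusted p of 0.05 with a 2-fold change by limma: 0 of 9 in liver, 0 of 10 in eWAT and 0 of 10 in muscle. Among all genes tested the same rule called 0% in liver, 0% in eWAT and 0.323% in muscle (35 genes, 54 with the replicate number as a block). At an unadjusted p under 0.05 there were 2 immediate early genes in liver (Ier2 and Junb), 1 in eWAT (Nr4a1) and 1 in muscle (Jun), against 5.74%, 16.7% and 16.3% of all genes. voom on the recovered fragments also called none of them in any tissue, and its calls over all genes were 59 in muscle and 0 in the other tissues. Other fits called more genes and still no member: 56 in liver and 214 in eWAT with all tissues in 1 fit, 35 in liver in the libraries of the study's quality table, and 160 in eWAT without HS3.

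The direction of the estimates differed by tissue. In liver 9 of 9 tested were higher in HSD, with a median log2 fold change of 1.02, beside 62.7% of all genes and a median of 0.13. In eWAT 10 of 10 were higher, with a median of 0.65, beside 59.1% of all genes and a median of 0.08. In muscle 5 of 10 were higher, with a median of −0.09, beside 39.2% of all genes and a median of −0.06. The members' estimates are not independent of each other, because the same libraries were high for most of them. The largest estimates were for Nr4a1 (1.64 ± 0.86) and Egr1 (1.55 ± 0.97) in liver. Without HS5, the median in liver was 0.64 and in eWAT 0.20, and without HS4 or HS3, respectively, it was 1.26 and 1.03. Without CON14 or CON16, the liver median was 0.59 and 1.12. With the mitochondrially encoded genes left out of the scaling it was 0.65, with 8 of 9 higher and an all-gene median of −0.20. The study's quality table leaves out CON16 and HS5 in liver and HS5 in eWAT. In the libraries it lists, 7 of 9 were higher in liver and 7 of 10 in eWAT, with medians of 0.94 and 0.20.

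These estimates rest on few libraries. Without HS5, Dusp1 and Zfp36 were lower in HSD in both liver and eWAT, and so was Fosb in eWAT. Weighting the liver libraries by their own spread (arrayWeights) called 6 members higher in HSD (Fos, Jun, Junb, Egr1, Ier2 and Nr4a1), where the same rule called 6.90% of all genes higher. Under that weighting 7123 of 10317 genes had an adjusted p under 0.05 by limma, against 0 without it, so its p-values were low for most genes. Without the CON16 liver library or the HS3 eWAT library no member was called, and the lowest adjusted p was 0.506 in liver and 0.0986 in eWAT by limma. The diet groups also differed in markers of other cells. In eWAT the 8 hepatocyte genes, none of which was at 0, summed to between 124 and 347 FPKM in CON and between 6.8 and 17.4 in HSD. The 8 macrophage genes summed to between 47.3 and 52.6 in CON and between 21.1 and 29.7 in HSD liver, and to between 23.8 and 32.5 in CON and between 15.4 and 16.4 in HSD muscle, where Clec4f was at 0 in all 6. In eWAT the macrophage sum was between 267 and 375 in CON and between 131 and 277 in HSD, and the 8 skeletal muscle genes summed to between 9.4 and 18.3 in CON and between 30.5 and 45.3 in HSD. The part of these differences in the results was not tested.

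**Figure D2:**
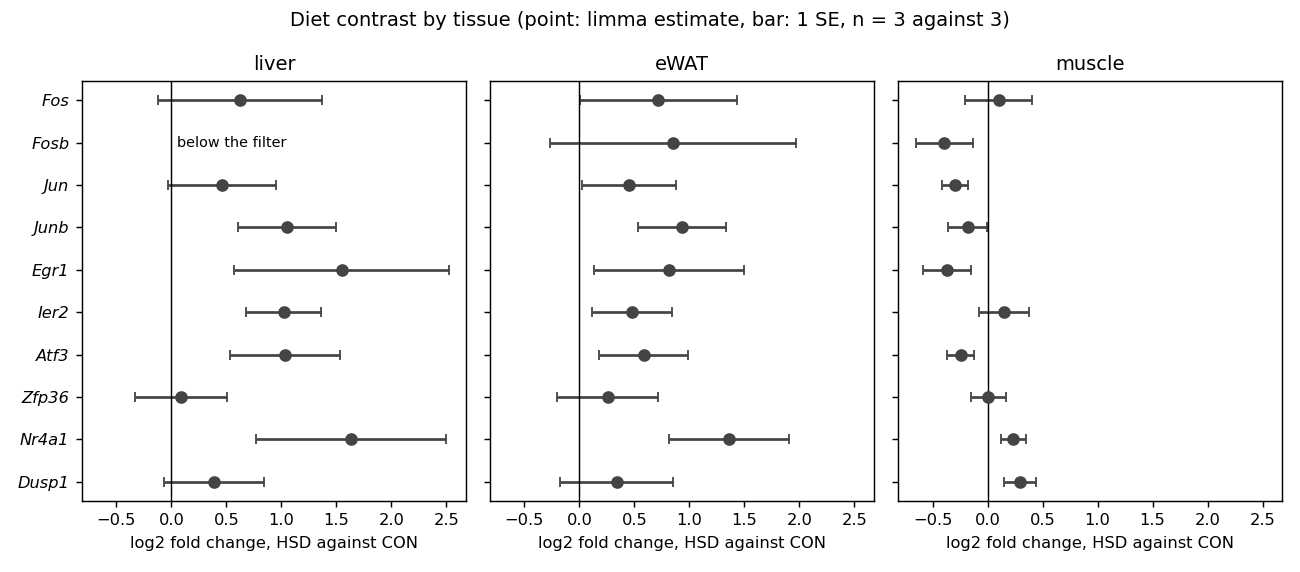
Log2 fold change of HSD against CON (x axis) for each immediate early gene, as the limma estimate with 1 SE on 3 against 3 libraries, by tissue. All estimates in liver and eWAT lie above 0 with long error bars (Nr4a1 in liver 1.64 ± 0.86), and those in muscle lie on both sides of 0 (Fosb −0.39, Dusp1 0.29).

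Whether the diet effect differed between tissues was tested in 1 fit of all 18 libraries with the mouse as a random block. No immediate early gene had an adjusted p under 0.05 by limma in any of the 3 pairs of tissues, where 0.811% (eWAT minus liver), 0.0612% (muscle minus liver) and 0% (eWAT minus muscle) of 13067 genes did. The median over the members of the muscle minus liver difference was −0.82, against −0.13 over all genes. The estimate was below 0 for 10 of 10 members, and for 8 of 10 with median-ratio scaling or in the libraries of the study's quality table. At an unadjusted p under 0.05, 8.07% of all genes differed in this pair, and 2 members did: Junb (−1.24 ± 0.53, adjusted p 0.563 by limma) and Atf3 (−1.28 ± 0.58, adjusted p 0.599 by limma). No member passed that limit in the other pairs. Fosb is among the 10 members here, although it was too low for the liver test. Its differences from liver carry no weight.

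Libraries of one group differed widely in these genes in liver and eWAT. The spread was measured as the SD of log2(FPKM + 0.5) within the diet groups of a tissue, with 4 degrees of freedom. In eWAT the median over the 10 members was 0.71, against 0.24 over all genes tested, and 10 of 10 had an SD of at least 0.5, against 20.5% of all genes. Fosb (1.66), Fos (1.06) and Egr1 (1.01) varied most. An SD of 1 on this scale is a 2-fold spread around the mean. In liver the median was 0.68 against 0.39, and 7 of 9 reached 0.5, against 34.6% of all genes. Egr1 (1.58), Nr4a1 (1.40) and Fos (1.2) were the most variable there, and Ier2 (0.32) was below the median of all genes.

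In muscle the median was 0.25 against 0.18, and only Fos (0.54) reached 0.5, against 2.04% of all genes. Nr4a1, among the most variable members in liver, had an SD of 0.09 in muscle, and Jun and Atf3 each of 0.11, all 3 below the median of all genes. Ier2, which was steady in liver in the deposited scaling, was at 0.39 in muscle. One library carries much of the muscle figure: without HS2 the median over the members was 0.15, against 0.15 for all genes, and none reached 0.5, and without HS3 the median was 0.22 and none reached 0.5. Without HS4, the liver median was 0.49 against 0.38 and 4 of 9 reached 0.5. With the mitochondrially encoded genes left out of the scaling, the liver median was 0.92 against 0.48. In that setting 9 of 9 reached 0.5, Ier2 among them. Without HS3, the eWAT median was 0.60 against 0.13 and 6 of 10 reached 0.5. Egr1 in eWAT rested on 972 to 6133 fragments, and Atf3 and Fos in liver on 1 to 58 and 13 to 159, where counting error is larger.

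**Figure D3:**
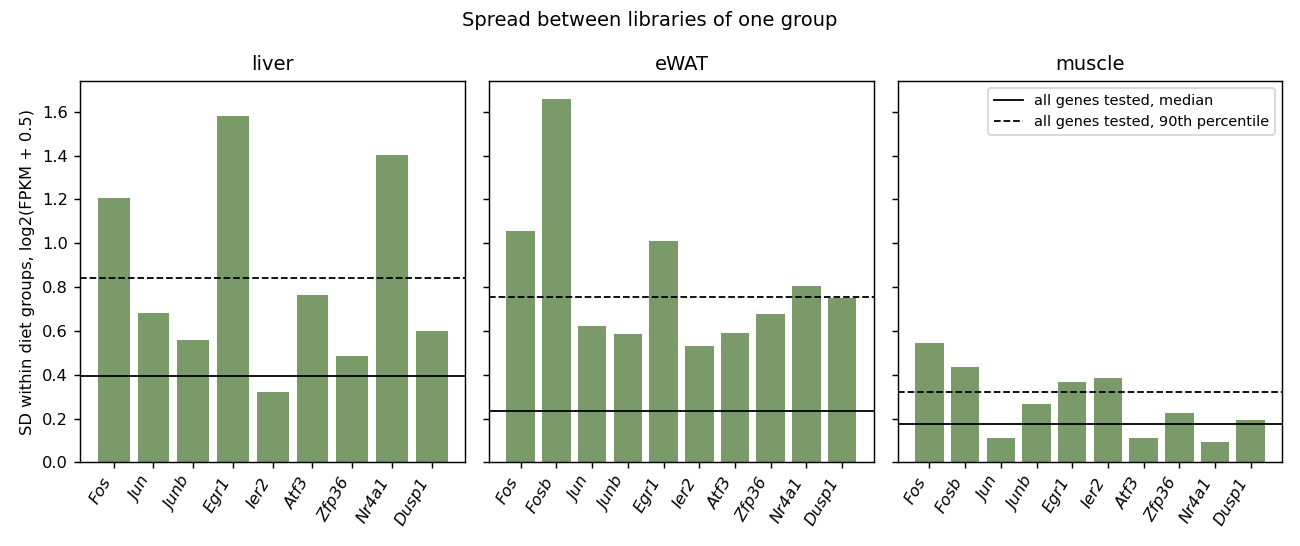
SD of log2(FPKM + 0.5) within the diet groups (bars) for each immediate early gene, by tissue, with the median (solid line) and 90th percentile (dashed line) over all genes tested. In eWAT every bar is above the median of 0.24, and in muscle Nr4a1, Jun and Atf3 are below the median of 0.18.

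The same libraries were high or low for most of the genes. In eWAT the HS5 library was the highest of 6 for 10 of 10 members, against 11.0% of all genes, and CON71 the lowest for 8 of 10, against 13.1%. HS3 was the lowest for the other 2, Dusp1 and Zfp36. In liver HS5 was the highest for 6 of 9 (18.2% of all genes) and HS2 for the other 3, Fos, Jun and Ier2 (16.8%), while HS4 was the lowest for 5 (20.0%). In muscle the pattern was weaker, with HS3 the highest for 4 of 10 (Fos, Junb, Ier2 and Dusp1; 19.0% of all genes) and HS2 the lowest for 6 (26.2%).

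Each library can be placed by the median over the members of the log2 difference from the tissue mean. In eWAT this was 0.93 in HS5, 0.45 in HS2, 0.32 in CON72, −0.26 in CON16, −0.59 in HS3 and −1.03 in CON71. The medians over all genes in the same libraries lay between −0.05 and 0.08. In liver it was 1.08 in HS5 and 0.76 in HS2, 0.01 in CON16, and −0.52, −0.61 and −0.65 in CON72, CON14 and HS4. The medians over all liver genes lay between −0.16 and 0.12. In muscle 5 libraries lay between 0.01 and 0.13, and HS2 at −0.34.

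Read by mouse, HS5 was highest in both liver and eWAT and at 0.13 in muscle, and HS2 was second in both liver and eWAT and lowest in muscle. CON72 was below the liver mean and above the eWAT mean, and CON71, the lowest in eWAT, was at 0.12 in muscle. In liver the mitochondrial share was 16.3% in HS2 and 44.4% in HS5, which were high, and 15.4% in HS4 and 60.8% in CON14, which were low. These fragments count in the total that scales every gene, so a large share lowers the FPKM of the other genes. The liver order was not redone without them. In eWAT it was between 3.52% and 5.11%, with HS5 at the top, and the fragment totals of HS5 and CON71 were 13084968 and 15155817. The part of these values, and of the time between death and freezing, in the order of the libraries was not tested.

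**Figure D4:**
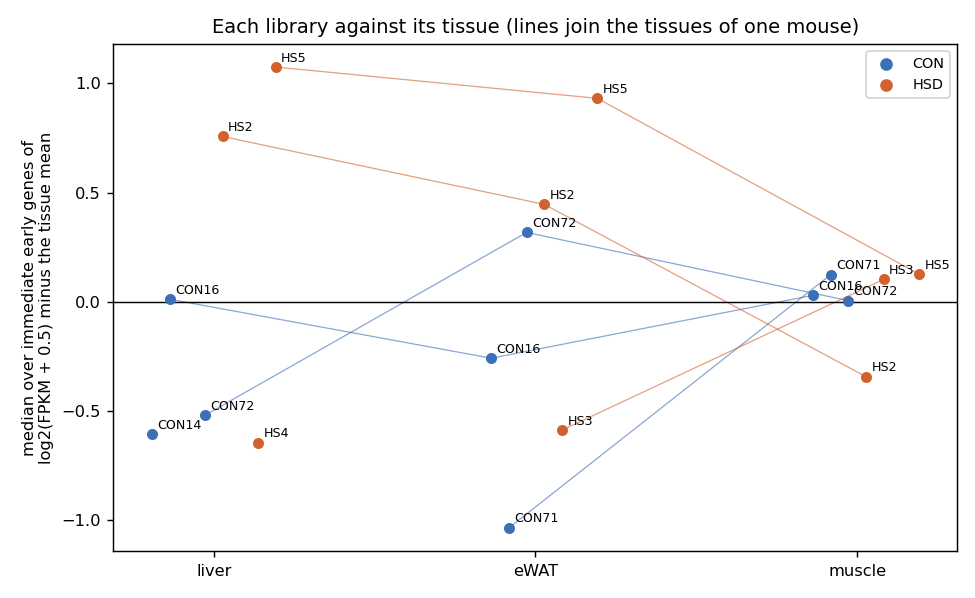
Median over the immediate early genes of the log2 difference from the tissue mean (y axis) in each of the 18 libraries, by tissue, with lines joining the tissues of one mouse (blue CON, orange HSD). HS5 and HS2 are the 2 highest libraries in both liver and eWAT, CON71 is the lowest in eWAT, and the muscle libraries apart from HS2 lie between 0.01 and 0.13.

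How far the genes moved together was described by Pearson's r to Fos over the 18 libraries, after subtracting the mean of each of the 6 groups. The libraries share mice and tissues and the deviations of a group sum to 0, so r is given without a p. Among the 9000 other genes with a mean of 0.5 FPKM in each tissue, Egr1 (r 0.94) came first, Junb (0.94) second, Ier2 (0.87) next and Nr4a1 (0.87) at place 4. Jun (0.84) was at place 6, Dusp1 (0.79) at 10, Zfp36 (0.77) at 14 and Atf3 (0.69) at 47. All 8 ranked members were therefore among the first 100, with a median r of 0.86 beside 0.04 over all genes. Fosb did not reach the level needed in liver. In eWAT alone its r to Fos was 0.98 and in muscle alone 0.96, each over 6 libraries.

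The 10 other genes nearest to Fos were Ccn1 (r 0.87, place 5), Ccn2 (0.83), Ciao3 (0.82), Amigo2 (0.80), Fmo2 (0.78), Btg2 (0.78), Id1 (0.78), Rbm48 (0.77), Jund (0.77) and Pla2g15 (0.76). Ccn1 and Ccn2 encode secreted matricellular proteins that serum and stretch induce, Btg2 an antiproliferative immediate early protein, Id1 an inhibitor of basic helix-loop-helix factors and Jund another Jun protein. Ccn1 in eWAT was at 68.4, 46.6 and 107 FPKM in CON and 91.9, 57.4 and 120 in HSD, with HS5 highest and CON71 lowest as for Fos. Btg2 was at 46.6, 34.3 and 58.7 in CON and 72.7, 33.3 and 81.4 in HSD eWAT. Leaving out CON16 liver and HS3 eWAT kept Egr1 and Junb at the first 2 places and moved Atf3 from place 47 to 167, and Ccn1, Ccn2, Ciao3 and Btg2 remained among the 10 nearest.

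The likeness was not the same in every tissue. In eWAT alone the median r of the 9 other members was 0.95, in liver alone 0.90 over 8 and in muscle alone 0.54 over 9. With 6 libraries many other genes also reached a high r. Among the first 100 genes were 7 of 9 members in eWAT alone, 3 of 8 in liver alone and 2 of 9 in muscle alone. In liver alone Jun was at place 161, Dusp1 at 567 and Atf3 at 1124 of 10316. In muscle Junb (0.98) and Dusp1 (0.88) still moved with Fos, Jun (−0.15) and Zfp36 (−0.08) did not follow it, and Nr4a1 (−0.86) was high where Fos was low. The place among all genes in muscle was 22 for Junb and 10459 of 10833 for Nr4a1.

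**Figure D5:**
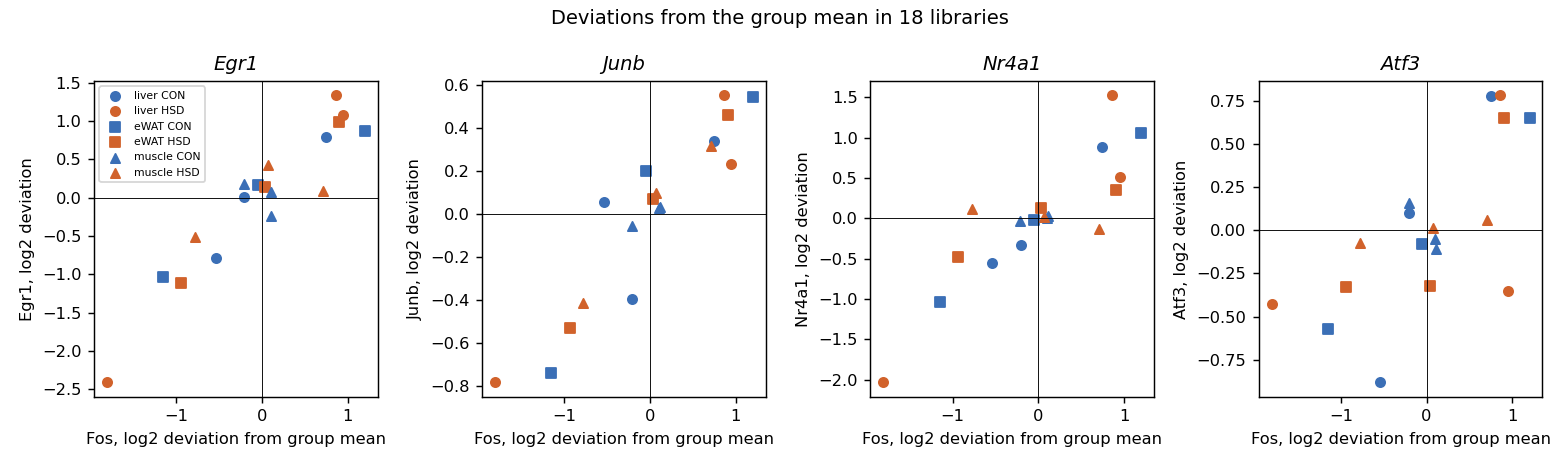
Log2 deviation from the group mean of Egr1, Junb, Nr4a1 and Atf3 (y axes) against that of Fos (x axes) in the 18 libraries, by tissue (marker) and diet (colour). Egr1 and Junb follow Fos closely (r 0.94 for each), Atf3 more loosely (0.69), and the muscle triangles of Nr4a1 stay near 0 on its axis.

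Other genes of the same response were read from fixed lists. Of 20 other primary response transcription factors, such as Klf2, Klf6 and Btg2, 15 were tested in liver, 19 in eWAT and 17 in muscle, and 0 were called in each diet comparison by limma (3, 4 and 5 at an unadjusted p under 0.05). Of all genes tested, 5.74%, 16.7% and 16.3% were under that limit, which is the share to set beside the other lists as well. Of the other AP-1 and dimer partners 7, 10 and 8 were tested and 0 called (0, 3 and 5 at an unadjusted p under 0.05). Atf4, the most abundant of them, was at 59.0 to 69.6 FPKM in CON and 85.8 to 106 in HSD muscle (log2 fold change 0.57 ± 0.13, adjusted p 0.0792 by limma), and at 46.5 to 51.7 in CON and 67.4 to 70.0 in HSD eWAT (0.46 ± 0.09, adjusted p 0.134 by limma). Every HSD library was above every CON library for Atf4 in both tissues, as for 6.72% of all genes tested in muscle and 16.2% in eWAT. Mafg and Jund, the next most abundant partners, were not called in any tissue.

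Among 34 other effectors and inhibitors in the data, 22, 33 and 27 were tested and 1 was called (3, 3 and 13 at an unadjusted p under 0.05). Of the 13 in muscle, 3 were higher in HSD, as were 465 of the 1761 muscle genes under that limit. Pim1, a serine/threonine kinase downstream of cytokine signals, rose in muscle, from 5.52, 5.32 and 4.25 FPKM in CON to 11.4, 19.3 and 12.9 in HSD (log2 fold change 1.41 ± 0.19, adjusted p 0.0191 by limma). Of 20 upstream kinases and transcription factors, all tested in each tissue, 1 was called (0, 1 and 3 at an unadjusted p under 0.05). Mrtfa, a coactivator of serum response factor, fell in muscle, from 8.33, 6.46 and 6.99 FPKM in CON to 2.68, 1.95 and 3.82 in HSD (log2 fold change −1.26 ± 0.20, adjusted p 0.0275 by limma).

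The upstream genes were steady where the immediate early genes were not. Their median SD within groups was 0.16 in eWAT and 0.13 in muscle, below the 0.24 and 0.18 of all genes, and 0.32 against 0.39 in liver. The other primary response factors had a median of 0.44 and the other effectors of 0.43 in eWAT, with 9 of 19 and 14 of 33 at 0.5 or above. The heat-shock family chaperones were read for comparison, with Hspa8, Hspb1 and Hspa5 the most abundant. Their median r to Fos was 0.01 over 11 genes, with a highest of 0.23, and their median SD was 0.23 in eWAT. Among markers of other cell types, the 4 ranked endothelial genes followed Fos with a median r of 0.55 (Tek 0.66 at place 75, Pecam1 0.55, Kdr 0.55 and Cdh5 0.51). The erythroid genes had a median of 0.40 over 5, the adipocyte genes of 0.34 over 4, the skeletal muscle genes of 0.30 over 7, the smooth muscle genes of 0.20 over 3, the macrophage genes of 0.18 over 6 and the hepatocyte genes of 0.02 over 4. The 6 endothelial genes, none at 0, summed to 90.04 FPKM in HS3 eWAT and to between 249 and 310 in the other eWAT libraries, and their part in the likeness was not tested. The other primary response factors and effectors had median r of 0.41 each, the AP-1 partners of 0.33 and the upstream genes of 0.21. The median SD of the chaperones in liver was 0.67, about that of the immediate early genes. Their sum was 792 FPKM in HS2 and 855 in HS4, which stood at opposite ends for Fos. None of the chaperones was called in any diet comparison (0, 0 and 3 at an unadjusted p under 0.05 in liver, eWAT and muscle, by limma).

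The levels also differed between tissues. Taking both diets together, Fos was at 54.6 ± 35.2 FPKM in eWAT, 16.8 ± 6.0 in muscle and 3.20 ± 2.58 in liver (mean ± SD, n = 6). By limma with the mouse as a block, eWAT exceeded liver by a log2 difference of 3.96 ± 0.50 (adjusted p 1.79e-06), muscle exceeded liver by 2.497 ± 0.50 (adjusted p 0.00031) and eWAT exceeded muscle by 1.46 ± 0.50 (adjusted p 0.0138). Fosb followed the same order at 8.59, 1.27 and 0.0919 FPKM, and Atf3 at 8.73, 3.21 and 1.22. Nr4a1 alone was highest in muscle, at 69.4 ± 7.7 FPKM against 29.3 ± 16.5 in eWAT and 6.88 ± 8.32 in liver.

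The inhibitor Zfp36 and the factors Junb and Ier2 were shared by liver and eWAT and low in muscle. Zfp36 was at 51.2 ± 14.4 FPKM in liver, 61.2 ± 25.0 in eWAT and 7.65 ± 1.12 in muscle. Its level in muscle was below that in liver by a log2 difference of −2.62 ± 0.27 (adjusted p 2.22e-07 by limma). Liver and eWAT did not differ beyond their spread for Zfp36 (0.20 ± 0.27), Junb (0.00 ± 0.27) or Ier2 (−0.06 ± 0.23), and neither did liver and muscle for Egr1 (0.02 ± 0.57) or Jun (0.34 ± 0.29), or eWAT and muscle for Dusp1 (0.55 ± 0.30). Egr1 was at 48.2 ± 32.5 FPKM in eWAT, 15.6 ± 17.0 in liver and 9.41 ± 2.35 in muscle, and Dusp1 at 78.7 ± 35.6, 31.4 ± 14.8 and 49.3 ± 8.1.

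By the same rule of an adjusted p under 0.05 and a 2-fold difference, 7 of 10 members were higher in eWAT than in liver, where 69.2% of all genes were called. Between muscle and liver 4 were higher (Fos, Fosb, Nr4a1 and Atf3) and 3 lower (Zfp36, Junb and Ier2), with 47.3% of all genes called. Fosb, listed at 0 in 3 of the 6 liver libraries, entered this fit only through the other tissues, so its calls against liver carry no weight. Between eWAT and muscle 8 were higher and Nr4a1 lower, with 57.8% of all genes called. The median gene was itself higher in eWAT than in liver by 1.37 and than in muscle by 1.03 on the log2 scale, and median-ratio scaling takes this shift out. With it, 3 members were higher in eWAT than in liver (Fos, Fosb and Atf3) and Zfp36, Junb and Ier2 lower, while only Zfp36 stayed higher and Nr4a1 lower in eWAT than in muscle. The 7 calls between muscle and liver held under that scaling. A pseudocount of 1 ended the call of Fosb between muscle and liver, and leaving out the mitochondrially encoded genes that of Dusp1 between eWAT and liver. Leaving out any 1 of the 18 libraries kept 7, 7 and 9 calls in the 3 comparisons.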

How the data were processed

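RNA from liver, eWAT and quadriceps muscle was extracted with TRIzol, depleted of ribosomal RNA, made into stranded total RNA libraries and sequenced in pairs. Per the study's methods, adapters were cut off with cutadapt, HISAT2 placed the reads on mm10, and the authors deposited FPKM values from cuffdiff, by Ensembl gene. The submitters' processing notes also name HTSeq 0.9.1 and both mm9 and mm10. Whole fragments were recovered from the FPKM values (18206 of 18822 genes whole in all 18 libraries, at a tolerance of 0.05 fragments).

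Genes with a mean of at least 0.5 FPKM were tested per tissue with limma 3.58.1 (R 4.3.3) on log2(FPKM + 0.5), which understates changes of low genes, with a trended prior and Benjamini-Hochberg adjustment over all genes tested. A call was an adjusted p under 0.05 with a 2-fold change. Tissue contrasts and interactions came from 1 fit of 6 groups with the mouse as a random block (consensus correlation 0.0222). Deviations of same-numbered CON and HSD samples correlated at 0.38, 0.18 and 0.18 in muscle. The values were −0.47, 0.40 and −0.21 in liver and −0.20, 0.06 and 0.41 in eWAT. The labels number samples only and do not pair them, so the replicate block is an alternative fit. On simulated data the test recovered 199, 196 and 198 of 200 changed genes in liver, eWAT and muscle designs. Recovery at the spread of the immediate early genes (median SD 0.68 in liver and 0.71 in eWAT) was not tested. Recovery at the size of their diet estimates (median log2 fold change 1.02 in liver and 0.65 in eWAT) was not tested either.

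The members and lists were chosen with earlier results of these data known. Named were all members, the 10 other genes with the highest r to Fos, and from each list the genes called or else the 3 most abundant. The alternatives included other pseudocounts, filters and scalings, voom, arrayWeights, leaving out each library, and the libraries of the study's quality table (without CON16 liver, HS5 liver and HS5 eWAT). The paper does not say whether its own comparisons left these out. Promoters are RefSeq's for GRCm38.p6. Poisson intervals cover counting error only.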

Additional observations from a re-analysis of the deposited data

How the results depend on the processing

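No immediate early gene was called for diet in eWAT or muscle under any alternative run, or in liver under any but arrayWeights, which called 6 (0 otherwise). The replicate block left 0 members called for diet in each tissue, and moved the muscle calls over all genes from 35 to 54. Between eWAT and muscle, 9 calls became 2 with median-ratio scaling, which takes out the shift of the median gene, and 5 with the CON libraries alone, which are fewer samples. The median r to Fos of 0.86 was 0.54 in muscle alone and 0.85 without CON16 liver and HS3 eWAT, a choice made after seeing the data. The median SD in muscle ran from 0.15 to 0.28 with 1 library left out.

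The tissue comparisons kept 7, 7 and 9 calls without the mouse block. Some estimates changed sign. With median-ratio scaling this goes with the shift of the median gene, and otherwise the cause was not tested. For diet in liver, Zfp36 was −0.014 with median-ratio scaling, −0.28 without mitochondrially encoded genes and −0.12 in the libraries of the study's quality table, where Dusp1 was −0.017. In those libraries of eWAT, Fosb was −0.080, Zfp36 −0.059 and Dusp1 −0.0030. Zfp36 in muscle was −0.016 without mitochondrially encoded genes. Between eWAT and liver, median-ratio scaling gave −1.60 for Junb, −1.40 for Zfp36 and −0.32 for Dusp1, leaving out mitochondrially encoded genes gave −0.56 for Junb and −0.36 for Zfp36, and the CON libraries alone gave 0.22 for Ier2. Between muscle and liver, the same first 2 settings gave −0.20 and −0.068 for Jun and −0.49 and −0.38 for Egr1, and a pseudocount of 1 gave −0.018 for Egr1. Dusp1 between eWAT and muscle was −0.51 with median-ratio scaling. With 1 library left out, the diet estimates ran from −0.13 to 0.48 for Zfp36 and −0.022 to 0.80 for Dusp1 in liver, −0.080 to 1.66 for Fosb, −0.059 to 0.76 for Zfp36 and −0.0030 to 0.87 for Dusp1 in eWAT, and −0.25 to 0.49 for Fos, −0.34 to 0.026 for Junb, −0.028 to 0.43 for Ier2 and −0.14 to 0.11 for Zfp36 in muscle. The tissue differences ran from −0.20 to 0.18 for Junb and −0.22 to 0.085 for Ier2 between eWAT and liver, and −0.58 to 0.33 for Egr1 between muscle and liver. Few fragments limit Fosb and Atf3 in liver.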
